A study of Mus musculus with 2 samples.

Results

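Atrial cardiomyocytes are the contractile cells of the upper heart chambers. Here they are the cells that the authors' integrated table of cells names atrial_CM, which held 233 of the 4546 cells with a cell type name in the part of that table used. The study set embryonic mouse hearts in which fibroblasts had been killed genetically against control hearts, at embryonic stages E18.5 and E16.5, by droplet single-cell RNA sequencing of 2 pooled libraries. Ablated samples had the genotype Pdgfra-CreER+/-;Rosa-DTA+/-. In these, an inducible recombinase made where the fibroblast gene Pdgfra is active switches on diphtheria toxin fragment A, which stops protein synthesis and kills the cell. Control samples were Rosa-DTA+/-, so the silent toxin allele was carried by both groups and the recombinase by the ablated group alone. The stage at which the recombinase was induced is not given in the sources used here. Each pool held 1 ablated and 1 control sample per stage, each stained with its own sample barcode before pooling. The labels do not say how many hearts a barcoded sample held.

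All 4546 named cells came from pool 1, so the 4 groups had 1 barcoded sample each. Atrial cells numbered 34 in the E18.5 ablated, 39 in the E18.5 control, 67 in the E16.5 ablated and 93 in the E16.5 control sample. The barcoded sample is the unit of replication, and differences between groups within a stage therefore had no test. Intervals on shares are exact binomial intervals at 95%, and those of differences were combined from them. They cover counting error only, not the spread between hearts. Over the 8 barcoded samples of both pools the total UMI count (unique RNA molecules counted) lay between 9225383 and 49416483. The pools shared 19 cell barcodes, and 0 of the atrial cells had one that also occurred in pool 2.

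Atrial and ventricular muscle differ in contractile proteins, calcium handling and secretion. Atrial cells are known for the regulatory and essential myosin light chains Myl7 and Myl4, for sarcolipin (Sln), which inhibits the calcium pump of the sarcoplasmic reticulum, and for the secreted natriuretic peptide Nppa, which embryonic ventricles also make. Cardiomyocytes of both chambers are rich in mitochondria and still divide before birth. Gene counts were not analysed here, so the name could not be checked against Myl7, Nppa, Sln and Myl4. Whether the named atrial cells formed a group of their own depended on the clustering. In the integrated table's clustering at resolution 0.5, 232 of the 233 cells lay in 1 of 20 clusters. That cluster held 235 cells, and the other 3 were ventricular cardiomyocytes. The names may rest on clusters of this kind, so this is no independent check of them. In the clusters made within pool 1, 159 of the 233 atrial cells shared a mainly atrial cluster. Another 32 each lay in clusters 3 and 4 of pool 1, which held mainly ventricular cells. Pooled over samples, the atrial median was 7.40% mitochondrial UMIs, against 9.90% in ventricular cardiomyocytes and 1.55% to 2.33% in the 6 other cell types. In each sample the atrial median, at 5.25% or above, was higher than that of each of the 6 other types, at 2.41% or below.

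Atrial cells made up a smaller part of the ablated sample than of the control sample at E18.5, and a larger part at E16.5. At E18.5, atrial cells were 3.92% of the ablated sample (34 of 867, interval 2.73 to 5.44) and 6.74% of the control sample (39 of 579, 4.83 to 9.09). The difference was -2.81 percentage points (-5.46 to -0.382). At E16.5 they were 10.1% of the ablated sample (67 of 665, 7.89 to 12.6) and 3.82% of the control sample (93 of 2435, 3.09 to 4.66). That difference was 6.26 points (3.92 to 8.90), or 2.64-fold. Both intervals left out 0, on opposite sides of it.

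The share of all cells also moves with the fibroblasts and other types lost or gained, so the atrial share of the cardiomyocytes was taken as well. At E18.5, 34 of 238 cardiomyocytes of the ablated sample were atrial, or 14.3% (10.1 to 19.4), against 39 of 88 in the control sample, or 44.3% (33.7 to 55.3). The difference was -30.0 points (-41.8 to -18.3). At E16.5 the shares were 17.3% of 388 cardiomyocytes in the ablated sample (13.6 to 21.4) and 7.71% of 1206 in the control sample (6.27 to 9.36). They differed by 9.56 points (5.57 to 13.9). The control sample at E18.5 stood apart from the other samples, with nearly as many atrial as ventricular cells. Ventricular cells numbered 204 in the ablated sample of that stage and 49 in the control sample.

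**Figure D1:**
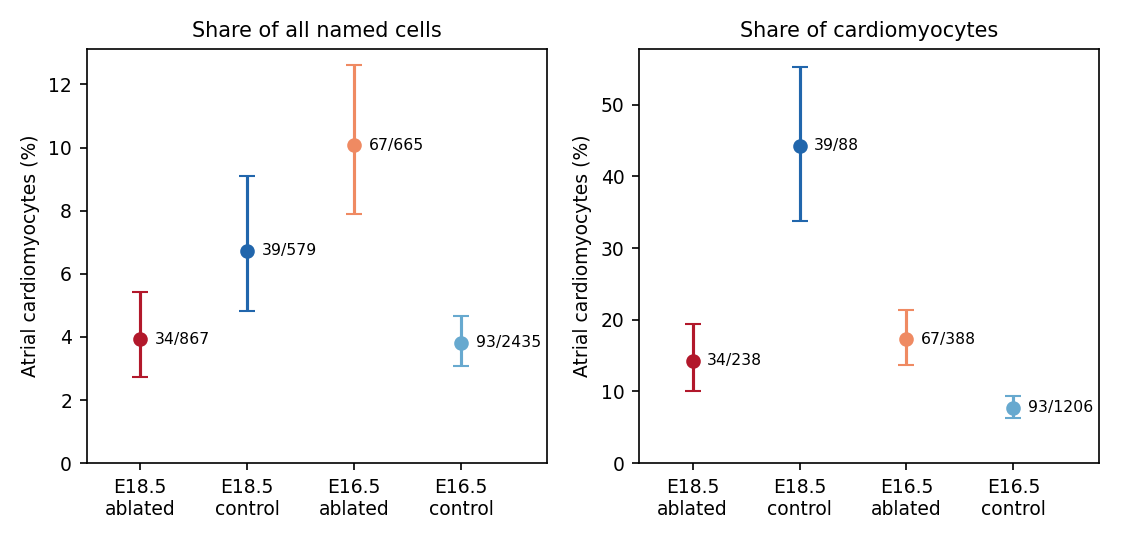
Atrial cardiomyocytes as a percent of all named cells (left) and of cardiomyocytes (right) in each barcoded sample of pool 1. Points are the measured shares, bars the 95% exact binomial intervals, and the labels the cell counts behind them. In both panels the ablated sample lies below the control sample at E18.5 and above it at E16.5.

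Between stages the atrial share went opposite ways in the 2 conditions. It was 3.92% at E18.5 and 10.1% at E16.5 in the ablated samples, a difference of -6.15 points (-8.96 to -3.50). In the control samples it was 6.74% at E18.5 and 3.82% at E16.5, which differ by 2.92 points (0.837 to 5.38). Among cardiomyocytes the ablated samples stood at 14.3% at E18.5 and 17.3% at E16.5, and 0 lay inside the interval of that difference (-8.87 to 3.28 points). The control samples stood at 44.3% at E18.5 and 7.71% at E16.5, which differ by 36.6 points (25.9 to 47.7).

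With ventricular cells left out of the denominator, 2 of these differences no longer left out 0. Atrial cells were then 5.13% of the ablated and 7.36% of the control sample at E18.5, and the difference of -2.23 points had an interval from -5.23 to 0.626. At E16.5 they were 19.5% of the ablated and 7.03% of the control sample, and 0 stayed outside the interval (12.4 points, 8.12 to 17.2). Between the control samples the E18.5 and E16.5 shares then differed by 0.324 points (-2.24 to 3.21).

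Two-sided exact permutation tests of the condition within stage, and of the stage within condition, gave p = 1 (adjusted p = 1 over 6 tests) for each of the 6 quantities tested, which were these shares, the mitochondrial percent, the UMI count and the share in S or G2M phase. With 4 reassignments the smallest p such a test can give is 0.5. Where the 2 differences had opposite signs, as for each of these 6 quantities, the test could only give its largest p. The mean over both stages, ablated minus control, was 1.72 points for the share of named cells and -10.2 points for the share of cardiomyocytes, each with 1 of 2 stages above 0.

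A second look at the atrial share came from cells of pool 1 that had no name. Clusters made within pool 1 covered all of its 7251 cells, and its cluster 9 was mainly atrial: 159 of its 198 named cells were atrial and 38 ventricular. Among the cells without a name, cluster 9 made up 3.35% of the ablated (16 of 477, 1.93 to 5.39) and 3.49% of the control sample (12 of 344, 1.82 to 6.01) at E18.5. The difference was -0.134 points (-3.03 to 2.50). At E16.5 it made up 5.43% of the ablated (22 of 405, 3.44 to 8.11) and 3.45% of the control sample (51 of 1479, 2.58 to 4.51), a difference of 1.98 points (-0.277 to 4.80). Both intervals held 0, so at this depth neither difference was detectable in the unnamed cells alone. At E16.5 cluster 9 was an uneven stand-in for atrial cells. It held 50.7% of the named atrial cells of the ablated and 72.0% of those of the control sample. At E18.5 it held 79.4% in the ablated and 79.5% in the control sample. Over all cells of pool 1, cluster 9 was 3.79% of the ablated and 4.98% of the control sample at E18.5 (difference -1.19 points, -3.06 to 0.565). At E16.5 it was 5.89% of the ablated and 3.55% of the control sample (2.34 points, 0.862 to 4.01).

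The atrial cells fell into 4 of the 40 integrated clusters, numbered 21, 22, 28 and 36. Cluster 21 held 80 cells with few UMIs and a high mitochondrial percent. Cluster 22 held 64 cells, with the highest median UMI count of the 4. Cluster 28 held 57 cells of low mitochondrial percent and few S or G2M calls. Cluster 36 held 32 cells, each called S or G2M by the authors' cell cycle scores. Which genes separate the clusters was not analysed here, so a smaller cluster may hold cells that are fewer or cells that were assigned elsewhere.

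Cluster 21 had a median of 5170.5 UMIs, 1984 detected genes and 18.9% mitochondrial UMIs per cell, and 70 of its 80 cells lay above 10% mitochondrial. Cluster 22 had medians of 15669.5 UMIs, 4098.5 genes and 5.01% mitochondrial, and cluster 28 had 11337 UMIs, 3696 genes and 4.76%. Cluster 36 stood at 13095.5 UMIs, 3931.5 genes and 8.41%. The mitochondrial UMIs themselves varied less between clusters than the other UMIs. Their median was 925 per cell in cluster 21, 729 in cluster 22, 571 in cluster 28 and 1081.5 in cluster 36. The median of all other UMIs was 4107.5 in cluster 21, against 14952.5, 10665 and 11217.5 in clusters 22, 28 and 36. The high percent of cluster 21 thus went with a low count of other RNA.

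Some ventricular clusters also joined a high mitochondrial percent with a low count of other UMIs. Their 4 clusters with a median above 10% mitochondrial (727 cells, a limit chosen after the values were seen) had medians of 1271 mitochondrial and 4948 other UMIs, against 1036.5 and 14075 in their 6 other clusters (960 cells). Deeper atrial cells had a lower mitochondrial percent in each sample. Spearman's rho across cells was -0.78 and -0.68 in the E18.5 ablated and control samples and -0.66 and -0.62 in the E16.5 ablated and control samples. Part of that relation is built in, since the UMI count is also the denominator of the percent.

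**Figure D2:**
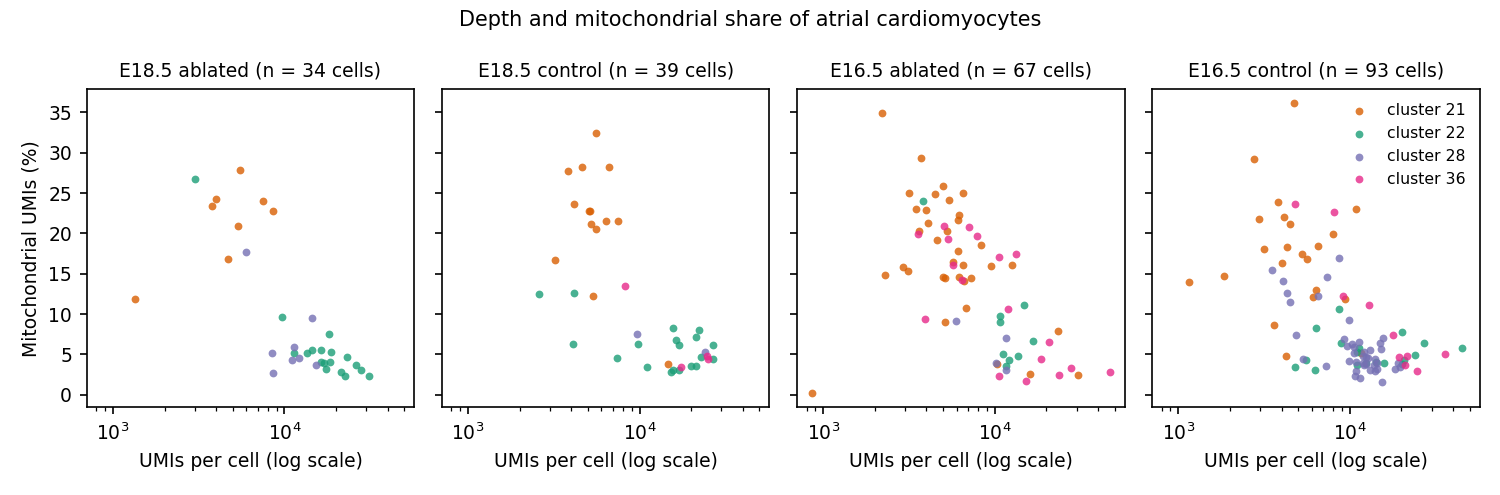
Each point is 1 atrial cardiomyocyte, placed by its UMI count (log scale) and its percent of mitochondrial UMIs and coloured by integrated cluster, with 1 panel per barcoded sample. Cluster 21 fills the upper left of each panel. Cells of cluster 36 above 10% mitochondrial number 10 of 18 in the E16.5 ablated, 4 of 10 in the E16.5 control and 1 of 4 in the E18.5 control sample. The median of cluster 36 is 12.4% mitochondrial in the E16.5 ablated and 6.21% in the E16.5 control sample.

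The mix of the 4 clusters differed between ablated and control samples, most at E16.5. Cluster 21 held 36 of 67 atrial cells of the E16.5 ablated sample, or 53.7% (41.1 to 66.0), and 22 of 93 of the E16.5 control sample, or 23.7% (15.5 to 33.6). That is a difference of 30.1 points (14.02 to 44.8). Cluster 28 held 4 of 67 in the ablated sample, or 5.97% (1.65 to 14.6), and 43 of 93 in the control sample, or 46.2% (35.8 to 56.9), a difference of -40.3 points (-51.8 to -26.8). Cluster 36 held 18 cells (26.9%) of the ablated and 10 cells (10.8%) of the control sample, 16.1 points more (3.14 to 29.5). For cluster 22, with 9 cells (13.4%) and 18 cells (19.4%) in the ablated and control samples, the interval held 0 (-17.8 to 6.99 points).

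At E18.5 cluster 22 was the largest in both samples, with 18 of 34 atrial cells of the ablated (52.9%) and 19 of 39 of the control sample (48.7%). The interval of that difference held 0 (-20.1 to 27.98 points). Cluster 21 held 8 cells (23.5%) of the ablated and 14 cells (35.9%) of the control sample, and this interval also held 0 (-33.6 to 10.6). Cluster 28 held 8 cells (23.5%) of the ablated and 2 cells (5.13%) of the control sample, a difference of 18.4 points (0.733 to 36.6), opposite in direction to E16.5. Cluster 36 held 0 of 34 atrial cells of the ablated sample, which allows a share of up to 8.82% by the limit of 3 cells and up to 10.3% by the exact interval, and 4 of 39 (10.3%) of the control sample. That interval held 0 (-24.2 to 2.41).

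Between stages, cluster 22 had the larger share at E18.5 in both conditions, and both intervals left out 0. Its share was 52.9% at E18.5 and 13.4% at E16.5 in the ablated samples, a difference of 39.5 points (18.8 to 58.2). It was 48.7% at E18.5 and 19.4% at E16.5 in the control samples, a difference of 29.4 points (10.5 to 47.5). Cluster 36 was smaller at E18.5 in both conditions, with a difference of -26.9 points (-39.1 to -12.5) in the ablated samples and of -0.496 points in the control samples, where the interval held 0 (-11.5 to 14.5). Of the 57 cells of cluster 28, 43 came from the E16.5 control sample. A cluster drawn mostly from 1 sample may mark that sample rather than a kind of cell.

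**Figure D3:**
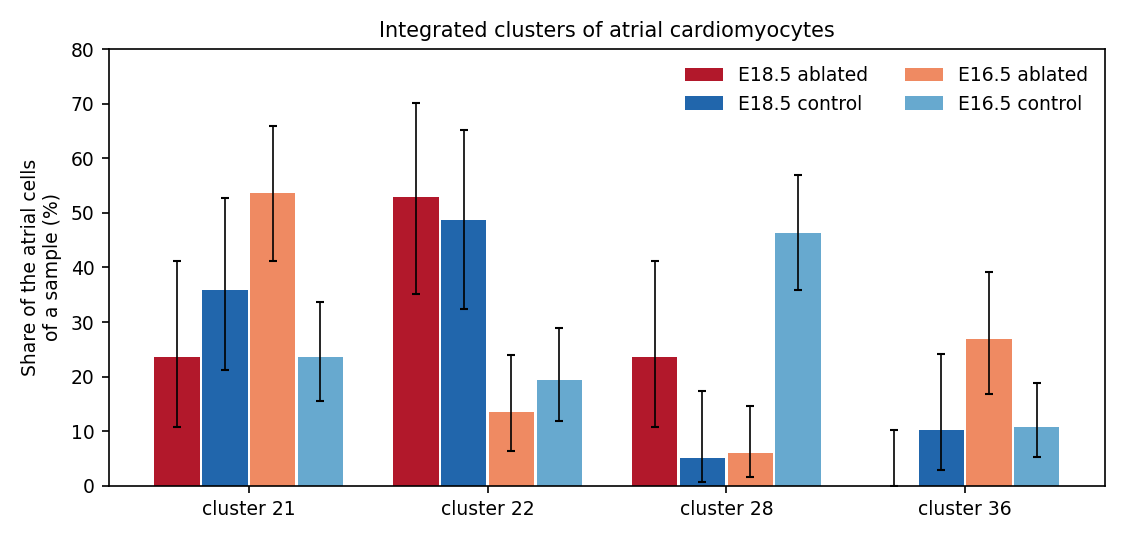
Percent of the atrial cells of each barcoded sample that lay in integrated clusters 21, 22, 28 and 36, with 95% exact binomial intervals. The E16.5 control sample is highest in cluster 28 at 46.2%, the E16.5 ablated sample in cluster 21 at 53.7%, and both E18.5 samples in cluster 22 at 52.9% (ablated) and 48.7% (control).

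The clusters made within pool 1 alone put some atrial cells among ventricular cells. Of the atrial cells, 159 lay in the mainly atrial cluster 9, and 32 each in clusters 3 and 4, which held 388 and 362 ventricular cells. All but 1 of the 57 cells of cluster 28 lay in cluster 9, whereas 30 of the 32 cells of cluster 36 lay in cluster 4 among ventricular cells. Cluster 21 was split, with 61 cells in cluster 9 and 17 in cluster 3. In the E16.5 ablated sample 34 of 67 atrial cells (50.7%) lay in cluster 9, against 67 of 93 (72.0%) in the E16.5 control sample. At E18.5 the shares were 79.4% in the ablated and 79.5% in the control sample.

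Depth and mitochondrial percent of the atrial cells followed the mix of clusters. Median mitochondrial percent was 5.25% in the ablated sample and 7.17% in the control sample at E18.5, and 14.6% in the ablated and 5.83% in the control sample at E16.5. The median UMI count was 12832.5 in the ablated and 9797 in the control sample at E18.5, and 6551 in the ablated and 10751 in the control sample at E16.5. The E16.5 ablated sample thus had the shallowest atrial cells and the highest mitochondrial percent, and 42 of its 67 atrial cells (62.7%) lay above 10% mitochondrial, against 31 of 93 (33.3%) in the E16.5 control sample (difference 29.4 points, 12.9 to 44.2). At E18.5, 10 of 34 (29.4%) of the ablated and 16 of 39 (41.0%) of the control sample did (interval of the difference -33.7 to 12.2).

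Within clusters 21 and 22 the gap in mitochondrial percent at E16.5 was smaller. In cluster 21 at E16.5, median mitochondrial percent was 16.3% in the ablated and 17.7% in the control sample, and in cluster 22 it was 6.65% in the ablated and 4.68% in the control sample. Cluster 36 kept a gap, with 12.4% in 18 ablated cells and 6.21% in 10 control cells. Averaged over the clusters with at least 5 cells in both samples, the difference at E16.5 was 2.26 points, against 8.81 points for all atrial cells together. Across the samples with at least 5 cells, the median of cluster 21 ranged from 16.3% to 23.1% and that of cluster 22 from 4.39% to 6.65%. In cluster 21 the E16.5 median UMI count was 5350 in the ablated and 4389.5 in the control sample. In cluster 22 it was 11571 in the ablated and 11845.5 in the control sample, and in cluster 36 it was 10620 and 18514. Averaged over these clusters the log2 UMI ratio at E16.5 was -0.18, against -0.71 for all atrial cells together.

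Ventricular cells of the same samples were set beside these. At E16.5, 54.5% of ventricular cells in the ablated and 50.7% in the control sample lay above 10% mitochondrial (interval of the difference -2.52 to 10.1 points). At E18.5 the shares were 33.8% in the ablated and 49.0% in the control sample (-31.2 to 0.967 points). The ablated minus control difference at E18.5 was thus -11.6 points in atrial and -15.2 points in ventricular cells, and at E16.5 it was 29.4 points in atrial and 3.84 points in ventricular cells. The 4 ventricular clusters of high mitochondrial percent held 55.5% of the ventricular cells of the ablated and 44.3% of those of the control sample at E16.5. That was 11.2 points more (4.80 to 17.4). At E18.5 these clusters held 21.6% in the ablated and 24.5% in the control sample. Among the cells of the 6 other types, 1.44% in the ablated and 2.28% in the control sample at E16.5 lay above 10%. Without the 10% of named cells highest in mitochondrial percent, the difference in atrial share at E16.5 was 5.29 points. The part of depth in the atrial differences of cluster mix and mitochondrial percent was not tested.

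The authors' S and G2M scores rate each cell by genes of DNA replication and of mitosis. The deposited phase was the higher of the 2 scores where that was above 0, and G1 otherwise, in 4546 of 4546 cells. Of the atrial cells, 3 of 34 in the E18.5 ablated (8.82%, 1.86 to 23.7) and 13 of 39 in the E18.5 control sample (33.3%, 19.1 to 50.2) were called S or G2M. The difference was -24.5 points (-42.8 to -3.93). At E16.5 these were 34 of 67 in the ablated (50.7%, 38.2 to 63.2) and 33 of 93 in the control sample (35.5%, 25.8 to 46.1). That difference was 15.3 points, and its interval held 0 (-1.13 to 31.0). In 44 of the 233 cells the higher score was within 0.05 of 0, so their call lies near the limit.

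Cluster 36 carried most G2M calls. It held 30 of the 51 atrial cells called G2M, with a median G2M score of 0.60 against -0.14, -0.16 and -0.20 in clusters 21, 22 and 28. Of the 32 cells called S, 19 were in cluster 21. The S scores of these 19 cells ran from 0.0029 to 0.43, and many lay near the limit of the call. Most S calls in the other clusters lay well above that limit. Cluster 21 thus held most S calls at the limit of 0, but not among the S calls with an S score above 0.05. Cluster 28 had 5 of 57 cells called S or G2M (8.77%), against 24 of 80 (30.0%) in cluster 21 and 22 of 64 (34.4%) in cluster 22. Outside cluster 36, the share called S or G2M was 8.82% in the ablated and 25.7% in the control sample at E18.5 (interval of the difference -35.8 to 2.997 points). At E16.5 it was 32.7% in the ablated and 27.7% in the control sample (-11.8 to 22.5 points).

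At E16.5 the small counts within clusters 21 and 22 went the other way. There, 12 of 36 cells of cluster 21 in the ablated sample (33.3%) and 9 of 22 in the control sample (40.9%) were called S or G2M. In cluster 22 these were 4 of 9 in the ablated (44.4%) and 9 of 18 in the control sample (50.0%), and in cluster 36 all 18 ablated and all 10 control cells. Averaged over these 3 clusters the E16.5 difference was -4.38 points, against 15.3 points for all atrial cells. At E18.5 the same average, over clusters 21 and 22, was -18.2 points. In cluster 21, 0 of 8 ablated and 3 of 14 control cells were called, and in cluster 22, 3 of 18 ablated and 6 of 19 control cells. The clusters were themselves made from expression, and whether cell cycle genes were left out is not given in the sources used here. Phase calls alone do not show division, and the part of free RNA in the droplets in these calls was not tested.

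**Figure D4:**
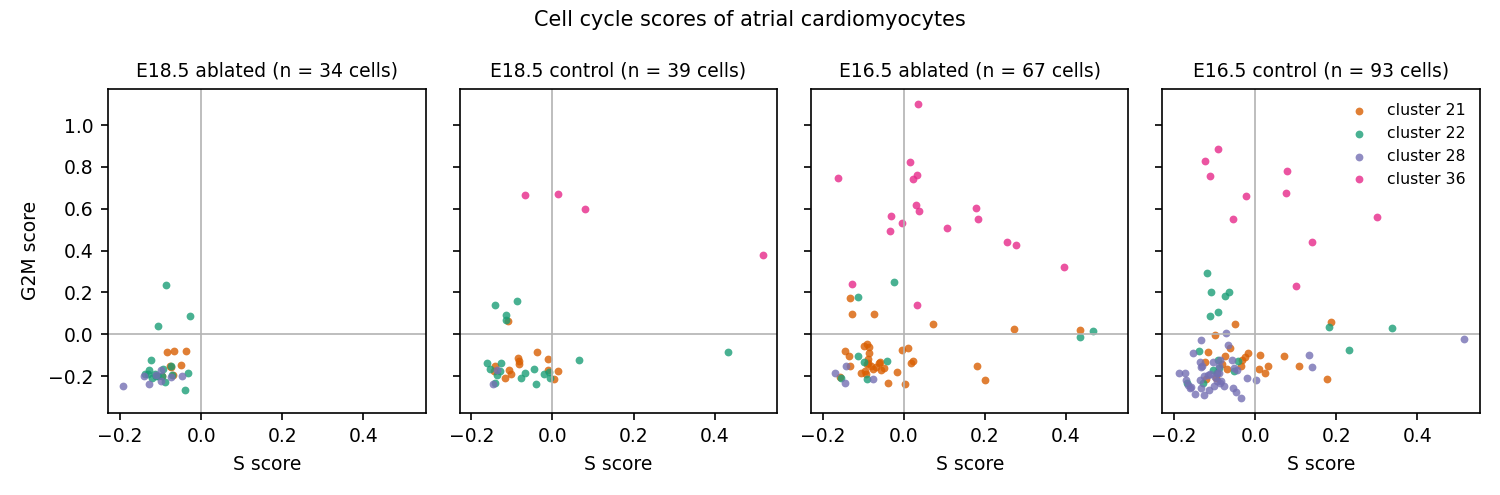
S score and G2M score (the authors' per-cell scores, no unit) of each atrial cardiomyocyte, coloured by integrated cluster, with 1 panel per barcoded sample and lines at 0. Cells with both scores below 0 were called G1. Cluster 36 stands at the top of 3 panels and is missing from the E18.5 ablated sample, in which 3 of 34 cells lie above 0 on either axis.

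Set against ventricular cardiomyocytes of the same samples, atrial cells had a lower mitochondrial percent in 3 of 4 samples. The medians were 5.25% in atrial and 7.88% in ventricular cells of the E18.5 ablated sample, and 7.17% in atrial and 10.00% in ventricular cells of the E18.5 control sample. In the E16.5 control sample they were 5.83% in atrial and 10.2% in ventricular cells. The E16.5 ablated sample went the other way, with 14.6% in atrial and 11.7% in ventricular cells. The mean difference was -1.71 ± 3.19 points (SD, n = 4; exact sign-flip permutation test, p = 0.5, adjusted p = 0.75 over 3 tests), and without the E16.5 ablated sample it was -3.26 points. With the mean over cells in place of the median, the E16.5 ablated sample turned to -0.20 points, so that atrial cells were lower in 4 of 4 samples (exact sign-flip permutation p = 0.125).

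Within windows of UMI counts the difference had 1 sign. The windows matched depth only roughly. They held 8 to 25 atrial cells per sample at 5000 to 10000 UMIs and 10 to 40 at 10000 to 20000 UMIs. Among cells with 5000 to 10000 UMIs, median mitochondrial percent was 19.3% in atrial and 23.0% in ventricular cells of the E18.5 ablated sample, and 21.2% in atrial and 23.4% in ventricular cells of the E18.5 control sample. In the same window it was 16.49% in atrial and 17.6% in ventricular cells of the E16.5 ablated sample, and 11.9% in atrial and 18.1% in ventricular cells of the E16.5 control sample. With 10000 to 20000 UMIs atrial cells were again lower in 4 of 4 samples, from 3.57% against 8.42% in the E18.5 control sample to 5.13% against 7.09% in the E18.5 ablated sample. The mean over both windows was -3.08 ± 1.23 points (SD, n = 4; exact sign-flip permutation test, p = 0.125, adjusted p = 0.125 over 3 tests). That is the smallest p that 4 samples can give, and the windows were chosen after the values were seen.

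With no account taken of depth, the median count of mitochondrial UMIs was lower in atrial than in ventricular cells in 4 of 4 samples. The median was 792 in atrial and 1155.5 in ventricular cells of the E18.5 ablated sample, and 1062 in atrial and 1384 in ventricular cells of the E18.5 control sample. It was 915 in atrial and 1053 in ventricular cells of the E16.5 ablated sample, and 644 in atrial and 1124 in ventricular cells of the E16.5 control sample. The mean log2 ratio of these medians was -0.48 ± 0.26 (SD, n = 4; exact sign-flip permutation test, p = 0.125, adjusted p = 0.125). Such counts also move with depth. In the E18.5 ablated and control samples this log2 ratio was -0.54 and -0.38, against -0.027 and -0.31 for all UMIs. In the E16.5 ablated and control samples it was -0.20 and -0.80, against -0.39 and 0.12 for all UMIs. The part of depth was not tested. At 10000 to 20000 UMIs, atrial cells had more detected genes in 4 of 4 samples, by 17.5 to 530.5 genes in the median (exact sign-flip permutation p = 0.125, adjusted p = 0.125). Only this window was tested for genes, and the windows were chosen after the values were seen. With 4 samples this p is the smallest possible. At 5000 to 10000 UMIs the sign varied, with -532 genes in the E18.5 control and 438.5 in the E18.5 ablated sample. There the difference was -232 genes in the E16.5 ablated and 301 in the E16.5 control sample. Cell types were named from the expression of these same cells, so such contrasts of types are not independent of the names.

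The direction of the chamber difference in UMI count depended on the cells kept. Atrial and ventricular cells had 12832.5 and 13077.5 UMIs in the E18.5 ablated sample, 9797 and 12175 in the E18.5 control sample, 6551 and 8568 in the E16.5 ablated sample, and 10751 and 9892 in the E16.5 control sample. The mean log2 ratio was -0.15 ± 0.24 (SD, n = 4; exact sign-flip permutation test, p = 0.375, adjusted p = 0.75). The median was lower in atrial cells in 3 of 4 samples, but without the 10% of cells of lowest UMI count it was higher in 3 of 4. Only 5 of the 233 atrial cells had over 3 times the atrial median UMI count.

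Phase calls differed between chambers in no single direction. In the E18.5 ablated sample, 8.82% of atrial and 29.9% of ventricular cells were called S or G2M. In the E18.5 control sample these were 33.3% of atrial and 32.7% of ventricular cells. They were 50.7% of atrial and 40.5% of ventricular cells in the E16.5 ablated sample, and 35.5% of atrial and 44.9% of ventricular cells in the E16.5 control sample. The mean difference was -4.90 ± 13.5 points (SD, n = 4; exact sign-flip permutation test, p = 0.75, adjusted p = 0.75), and it was 0.496 points without the E18.5 ablated sample. Ventricular cells of the ablated and control samples differed by -2.75 points at E18.5 and -4.43 points at E16.5. Both intervals held 0 (-18.9 to 11.7 and -10.6 to 1.90). The atrial differences were -24.5 points at E18.5 and 15.3 points at E16.5, and the interval of the E16.5 value also held 0. Whether the atrial and the ventricular differences were unlike was not tested.

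**Figure D5:**
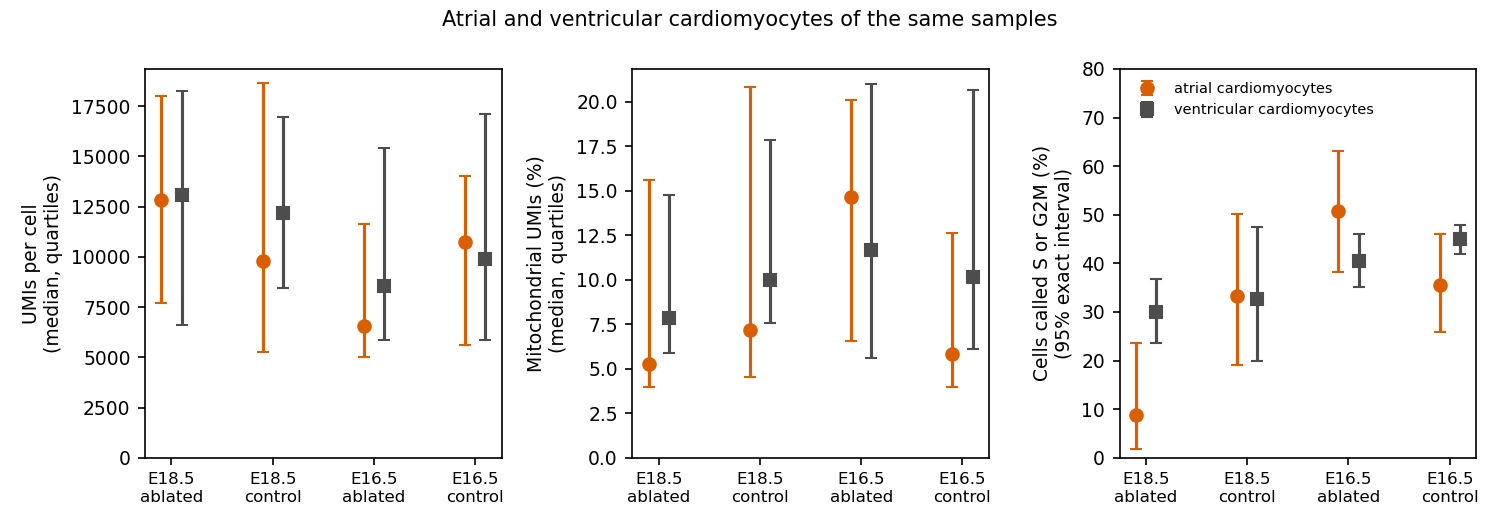
Atrial (circles) and ventricular (squares) cardiomyocytes of each barcoded sample. The panels show the UMI count per cell and the percent of mitochondrial UMIs (median with quartiles), and the percent of cells called S or G2M with 95% exact binomial intervals. Atrial cells have the lower median mitochondrial percent in each sample other than E16.5 ablated, where they stand at 14.6% against 11.7%.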

How the data were processed

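Per the submitters' processing notes, the reads were processed with Cell Ranger 7.1.0 on the mouse build GRCm38; how cells were filtered, clustered and scored is not given in the sources used here. The authors deposited, per the file headers, for each cell the raw UMI count and the count of detected genes, the percent of UMIs that are mitochondrial, an S score and a G2M score, cluster numbers and, in the integrated table, a cell type name. Every deposited cell was called single by its sample barcode; no further doublet caller was run, and UMIs could not be thinned without gene counts. The part of the integrated table used here ended inside a row and named 62.7% of the cells of pool 1; names for the rest and for pool 2 were not analysed here. Named cells were matched to the pool 1 table by cell barcode, with equal UMI counts in 100% of cells. Mitochondrial UMIs were recovered as the percent times the UMI count, which gave whole numbers (within 0.01) in 4546 of 4546 cells.

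Shares carry exact (Clopper-Pearson) intervals at 95%, combined for differences by the square-and-add method and checked on simulated data. A count of 0 was set at a limit of 3 cells. Medians were taken per barcoded sample. Two-sided exact permutation tests swapped the condition within stage (4 reassignments) or the cell type within sample (16), with Benjamini-Hochberg adjustment. Nothing in the labels says that barcoded samples were separate animals. With 1 sample per stage and condition, these p-values weigh only how far differences agree over stages, conditions or samples. They do not measure the spread between samples of a group. Each atrial cluster of at least 10 cells was described. The members, clusters and tests were chosen with earlier results of these data known. Python 3.11.15, scipy 1.17.1 and pandas 2.3.3 were used.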

Additional observations from a re-analysis of the deposited data

Results flagged for a closer look

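The ablated minus control difference of atrial cells had opposite signs at the 2 stages for all 11 quantities screened for this. They are not separate results. The cluster shares add up to the whole, and S or G2M calls enter both with and without cluster 36. In ventricular cells the share above 10% mitochondrial also had opposite signs (-15.2 points at E18.5 and 3.84 at E16.5). The ventricular share called S or G2M did not (-2.75 points at E18.5 and -4.43 at E16.5). With 1 sample per stage and condition the difference between stages was not tested. Alternatives were run only for the atrial shares of named cells and of cardiomyocytes, median mitochondrial percent, the UMI count and the S or G2M share. For 2 of these the opposite signs were lost under an alternative. The cluster shares, the share above 10% mitochondrial and the share outside cluster 36 were not put through any. The log2 UMI ratio was -0.030 at E18.5 and -0.16 at E16.5 without the 10% of cells highest in mitochondrial percent, and the S or G2M difference was -18.2 points at E18.5 and -4.38 at E16.5 averaged within clusters. The atrial share of named cells differed by -2.81 points at E18.5 and 6.26 points at E16.5, and the atrial share of cardiomyocytes by -30.0 points at E18.5 and 9.56 points at E16.5.

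Among atrial cells, the share in cluster 21 differed by -12.4 points at E18.5 and 30.1 points at E16.5. For cluster 22 the differences were 4.22 points at E18.5 and -5.92 at E16.5, for cluster 28 they were 18.4 points at E18.5 and -40.3 at E16.5, and for cluster 36 they were -10.3 points at E18.5 and 16.1 at E16.5. The share called S or G2M differed by -24.5 points at E18.5 and 15.3 points at E16.5, and outside cluster 36 by -16.9 points at E18.5 and 4.94 points at E16.5.

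The share above 10% mitochondrial differed by -11.6 points at E18.5 and 29.4 points at E16.5. Median mitochondrial percent differed by -1.92 points at E18.5 and 8.81 points at E16.5, and the log2 ratio of median UMI counts was 0.39 at E18.5 and -0.71 at E16.5.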

How the results depend on the processing

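Of 36 alternatives other than leaving samples out, 35 kept the sign of the mean over stages, conditions or samples. For contrasts of condition or stage, each reported mean joins 2 values of opposite sign. Its sign shows only which of the 2 was larger, so keeping it says little about either value. The exception was the median G2M score in place of the phase call, where the ablated minus control mean was 0.023 against -4.62 points for the phase call. Both stages kept their sign there (-0.025 at E18.5 and 0.071 at E16.5). Single values turned in 8 of the 36. Without the 10% of cells highest in mitochondrial percent, the log2 UMI ratio of ablated over control at E18.5 was -0.030, against 0.39, and averaged within clusters the S or G2M difference at E16.5 was -4.38 points, against 15.3. For atrial minus ventricular cells, mitochondrial percent of the E16.5 ablated sample turned with the mean or the UMI windows (-0.20 and -1.51, against 2.94 points). The log2 UMI ratio turned in both E18.5 samples without the cells of lowest UMI count (0.057 in the ablated and 0.075 in the control sample), and with the mean in the E18.5 ablated (0.020) and E16.5 control sample (-0.11). S or G2M calls of the E18.5 control sample turned without the lowest UMI counts (-1.36 points) and by G2M score (-0.0099). The cause was not tested. Leaving out 1 stage gave -2.81 to 6.26 points for the atrial share of named cells, -30.0 to 9.56 for the share of cardiomyocytes, -1.92 to 8.81 for median mitochondrial percent, -0.71 to 0.39 for the log2 UMI ratio and -24.5 to 15.3 for the S or G2M share. Leaving out 1 condition gave -6.15 to 2.92 points for the share between stages. Leaving out 1 sample, the atrial minus ventricular difference was -9.95 to 0.496 points for S or G2M calls, -3.26 to -0.838 points for mitochondrial percent and -0.24 to -0.074 for the log2 UMI ratio. The atrial share difference at E16.5 lay between 5.29 and 6.39 points without the cells of lowest or highest UMI count or highest mitochondrial percent and with names weighted to all of pool 1; at E18.5 it lay between -2.71 and -1.92 points. Chosen after seeing the data were the UMI windows, the cells outside cluster 36, leaving out a condition and the 10% mitochondrial limit that grouped ventricular clusters. The tests of the mitochondrial UMI count and of detected genes were not among those planned. No paired analysis was possible because the labels number only the 2 libraries and the named cells came from 1 of them; atrial and ventricular cells were compared within each barcoded sample. With 34 to 93 atrial cells per sample, counting error limits each share.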
